A study of Homo sapiens with 29 samples.

Results

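VGF, SCG2, SCG5 and CHGB are 4 genes of the granin family and its chaperone, followed here in IMR90 ER:RAS fibroblasts before and during oncogene-induced senescence and after knockdown of SMARCA4. They were chosen by name out of the 28266 genes in the count table because VGF had been seen to rise in senescence and to fall with the knockdown, so those 2 changes are given as levels without a test. Read counts of 10 or more in enough libraries kept 13136 genes for testing, and 3 of the 4 genes (VGF, SCG2 and CHGB) were among them.

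Granins are acidic proteins that aggregate in the trans-Golgi network, are packed into dense-core vesicles of neurons and endocrine cells and are cut there into peptides. VGF, named as a gene induced by nerve growth factor, encodes a precursor of several signaling peptides. SCG2 (secretogranin II) is the precursor of secretoneurin, CHGB (chromogranin B) is a major vesicle matrix protein, and SCG5 encodes the chaperone of the prohormone convertase PCSK2. Fibroblasts secrete mainly through the constitutive route and are not known as a granin-rich cell type.

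IMR90 is an established human lung fibroblast line, and ER:RAS is a retrovirally delivered fusion of oncogenic RAS with an estrogen receptor domain that the line used for all groups was made to carry. Polyadenylated RNA was sequenced on day 7 from 3 groups of 6 libraries. DMSO_siNT cells received the vehicle DMSO and a non-targeting siRNA and kept growing. 4OHT_siNT cells received the same control siRNA and 4-hydroxytamoxifen (4OHT), which switches RAS on and drives senescence, and 4OHT_siSMARCA4 cells received 4OHT and an siRNA against SMARCA4, an ATPase of the SWI/SNF chromatin remodeling complex. For short, senescent cells below means 4OHT_siNT, and the knockdown means 4OHT_siSMARCA4, whose cells were also driven to senescence with 4OHT. Each arm holds 3 libraries with siRNA number 2 and 3 with siRNA number 4. Libraries are named here by siRNA number and set, so that 4-2V is siRNA number 4 in set 2V. Set names end in V or VM, letters whose meaning is not given in the sources used here. The 6 4OHT_siNT libraries are all VM sets, DMSO_siNT has 3 V and 3 VM, and 4OHT_siSMARCA4 has 3 V, 2 VM and 1 library that is called unlabelled here. Its column name places it in set 1VM of siSMARCA4 number 2, but no sample title has that pair, so it counts for its group and siRNA number and was kept out of comparisons between sets unless stated. The labels do not say whether libraries came from separate cultures, so p-values measure only the spread between these libraries, which may be technical. In bulk RNA, fewer cells making a transcript and less of it per cell cannot be told apart.

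The growing cells gave 9657309 to 13448183 counts per library, senescent cells 13237672 to 15407710 and knockdown cells 11382143 to 18039313. All 12 fibroblast markers exceeded 3 counts in at least 1 library of each group, as did 8, 7 and 7 of 12 neuronal and 3, 2 and 2 of 10 neuroendocrine markers in DMSO_siNT, 4OHT_siNT and 4OHT_siSMARCA4. DCX of the neuronal and GRP of the neuroendocrine list had 0 counts in every library, but other members of these lists were expressed, TUBB3 and UCHL1 among them. The library labelled DMSO_siNT 4-2V stood apart: it had the lowest total, REST at 151 CPM (counts scaled to a common library size) against 46.0 to 58.3 in the other DMSO_siNT libraries, and reads of the transgene's parents ESR1 and HRAS at 29.5 and 436 CPM against 1034 to 1316 and 2165 to 2852. It also held the highest VGF and SCG2 levels of its group.

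The start of the VGF gene is shown first because VGF was the member that moved most. VGF lies at chr7:101162509-101165569 on the minus strand, SCG2 at chr2:223596940-223602361 on the minus strand, SCG5 at chr15:32641676-32697098 on the plus strand and CHGB at chr20:5911510-5925353 on the plus strand, all protein-coding genes in GENCODE release 44 on hg38. VGF, SCG2 and CHGB overlap no other annotated gene, while SCG5 lies within the read-through gene ARHGAP11A-SCG5 on its own strand and has the antisense SCG5-AS1 on the other, so its few reads cannot be assigned with certainty. The RefSeq promoter table (GRCh38.p14) held 2 of the 4 members, VGF and SCG5, and all 3 of the other granins examined. Below are the 250 bases before the start of VGF (chr7:101165570-101165819, minus strand) and of its relative CHGA (chromogranin A, chr14:92922900-92923149, plus strand), both 5′ to 3′ on the gene's strand. Capitals mark a full cyclic AMP response element (CRE), TGACGTCA.
VGF: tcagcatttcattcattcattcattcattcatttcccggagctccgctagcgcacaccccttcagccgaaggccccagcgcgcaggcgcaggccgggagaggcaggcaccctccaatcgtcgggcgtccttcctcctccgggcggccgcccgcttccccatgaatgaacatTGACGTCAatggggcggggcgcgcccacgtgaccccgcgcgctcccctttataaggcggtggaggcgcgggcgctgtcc
CHGA: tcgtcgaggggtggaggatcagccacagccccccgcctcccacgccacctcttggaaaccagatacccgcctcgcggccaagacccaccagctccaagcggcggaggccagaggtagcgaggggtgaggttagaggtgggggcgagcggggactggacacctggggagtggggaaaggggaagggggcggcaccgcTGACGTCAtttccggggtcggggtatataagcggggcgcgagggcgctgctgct
The CRE begins 79 bases before the start of VGF and 54 bases before that of CHGA. Searched on both strands in windows from 250 bases before to 50 after the start, this palindrome occurs in 1.85% of the 35116 promoters of the table, and its core TGACG, which every full CRE also contains, in 24.6%. SCG5 has only the core, 17 bases before its start. VGF also holds 4 matches to the GC box GGGCGG, present in 45.0% of promoters, and, on the opposite strand, 1 to TATAAA, present in 11.5%. It has no match to the AP-1 letters TGANTCA (7.71% of promoters) or to CAGCACC (7.75%), the left part of the RE1 element that the repressor REST binds. These matches are letters in a window and were not tested as binding sites.

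SMARCA4 itself was reduced in all libraries meant to lack it. Its level was 217 ± 15.3 CPM in DMSO_siNT, 301 ± 20.9 in 4OHT_siNT and 99.0 ± 27.6 in 4OHT_siSMARCA4 (SD, n = 6 each), a log2 fold change of -1.61 ± 0.142 (SE) with the knockdown (edgeR's quasi-likelihood test, adjusted p = 1.3e-06). The 6 knockdown libraries were unequal, from 70.4 CPM in 4-2VM, 78.8 in the unlabelled library and 87.0 in 2-3VM to 92.7 in 4-3V, 125 in 2-3V and 141 in 4-2V.

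VGF was low in growing cells, high in senescent cells and low again when SMARCA4 was knocked down. In DMSO_siNT it stood at 11.0 CPM in library 2-1V, 10.5 in 2-2V, 5.28 in 2-2VM, 16.3 in 4-2V, 8.80 in 4-2VM and 8.45 in 4-3VM. In 4OHT_siNT it stood at 99.0 CPM in 2-1VM, 124 in 2-2VM, 157 in 2-3VM, 78.1 in 4-1VM, 53.1 in 4-2VM and 68.5 in 4-3VM. The lowest senescent library thus lay above the highest growing one, and the 3 libraries with siNT number 2 were all above the 3 with number 4. In 4OHT_siSMARCA4 VGF stood at 5.51 CPM in 2-3V, 5.5 in 2-3VM, 5.25 in the unlabelled library, 6.0 in 4-2V, 9.68 in 4-2VM and 8.08 in 4-3V. All 6 fell below every 4OHT_siNT library and within or below the range of the growing cells.

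The fitted log2 fold change of VGF was 3.27 ± 0.278 (SE) with 4OHT, a 9.67-fold rise, and -3.86 ± 0.287 with the knockdown, 14.5-fold lower. These are the changes that chose the gene and carry no test. Among the 13136 genes tested, its rise ranked 189 from the top and its fall with the knockdown 3 from the bottom. For reading these values, 52.8% of all genes passed the threshold between 4OHT_siNT and DMSO_siNT and 10.6% between 4OHT_siSMARCA4 and 4OHT_siNT, and the CPM ranges of the groups did not overlap for 33.8% and 11.4% of genes. Against growing cells, VGF in the knockdown differed by a log2 fold change of -0.58 ± 0.273, and the ranges overlapped. That last value was -0.0059 ± 0.442 within the VM sets and -0.41 ± 0.264 without DMSO_siNT 4-2V, so a level below that of growing cells rested on which libraries were compared. Within the VM sets the 2 larger changes were 3.68 ± 0.347 and -3.69 ± 0.42.

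**Figure D1:**
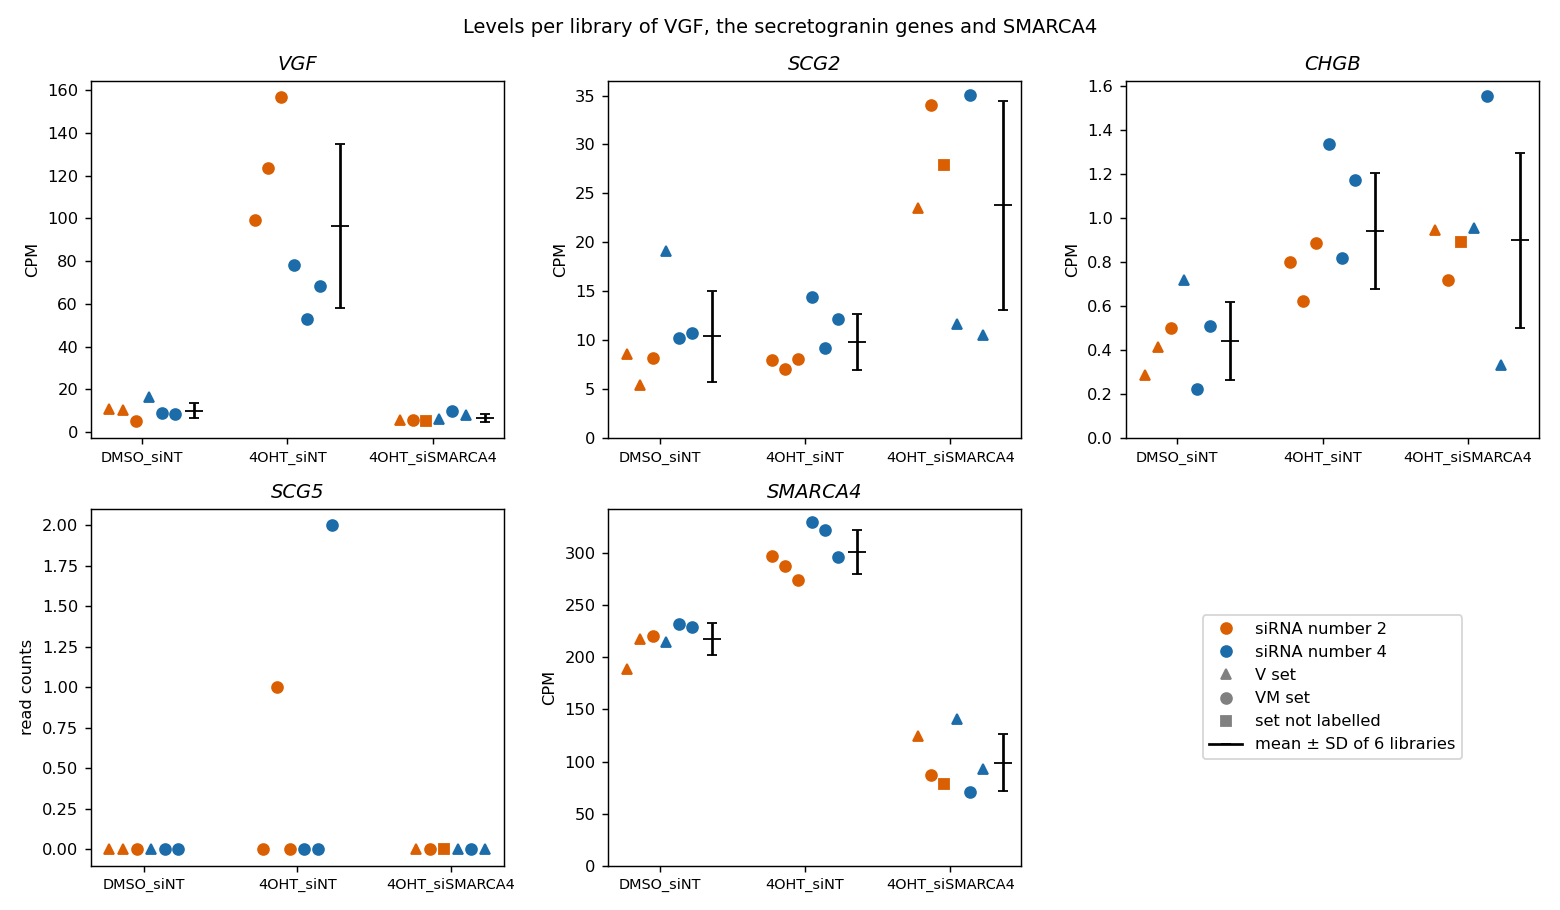
Each point is 1 library, grouped along the horizontal axis, with the level on the vertical axis in CPM (read counts for SCG5), colored by siRNA number and shaped by set, and bars give the mean ± SD of 6 libraries. VGF separates the 4OHT_siNT libraries (53.1 to 157 CPM) from both other groups, SCG2 is spread out in the knockdown (10.6 to 35.0 CPM), and SCG5 has 1 and 2 counts in 2 libraries.

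SCG2 did not follow VGF. In DMSO_siNT its level was 8.62 CPM in 2-1V, 5.43 in 2-2V, 8.14 in 2-2VM, 19.1 in 4-2V, 10.2 in 4-2VM and 10.7 in 4-3VM. In 4OHT_siNT it was 7.94 CPM in 2-1VM, 7.06 in 2-2VM, 8.06 in 2-3VM, 14.4 in 4-1VM, 9.21 in 4-2VM and 12.1 in 4-3VM, so the senescent range lay inside the growing one. In 4OHT_siSMARCA4 it was 23.5 CPM in 2-3V, 34.0 in 2-3VM, 27.9 in the unlabelled library, 11.7 in 4-2V, 35.0 in 4-2VM and 10.6 in 4-3V. Of the 6 knockdown libraries 4 exceeded every 4OHT_siNT library, and the 2 that did not were the V sets of siRNA number 4.

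The log2 fold change of SCG2 was -0.071 ± 0.316 (SE) with 4OHT and 1.28 ± 0.312 with the knockdown, given without a test, since SCG2 was named together with VGF. Between the knockdown and growing cells, a contrast that did not choose the genes, SCG2 was higher by 1.21 ± 0.313, a 2.31-fold difference (edgeR adjusted p = 0.00318, 95% interval 0.551 to 1.86), where 50.5% of all genes passed the same threshold and the ranges of 29.6% did not overlap. The SCG2 ranges overlapped. DMSO_siNT 4-2V, at 19.1 CPM, was above the 2 low knockdown libraries, and DMSO_siNT 4-3VM, at 10.7 CPM, was above 4OHT_siSMARCA4 4-3V, at 10.6. Without DMSO_siNT 4-2V the difference was 1.45 ± 0.288 (edgeR adjusted p = 0.000208). With siRNA number 4 alone, 3 libraries against 3, it was 0.52 ± 0.454 and did not pass (edgeR adjusted p = 0.4), against 1.94 ± 0.178 with number 2 alone.

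CHGB was measured near the detection limit. Its counts in DMSO_siNT were 4 in 2-1V, 5 in 2-2V, 7 in 2-2VM, 6 in 4-2V, 3 in 4-2VM and 7 in 4-3VM. In 4OHT_siNT they were 11 in 2-1VM, 9 in 2-2VM, 12 in 2-3VM, 18 in 4-1VM, 12 in 4-2VM and 15 in 4-3VM. In 4OHT_siSMARCA4 they were 12 in 2-3V, 9 in 2-3VM, 11 in the unlabelled library, 17 in 4-2V, 18 in 4-2VM and 4 in 4-3V. By count every senescent library was above every growing one, but after scaling for depth the CPM ranges overlapped, since DMSO_siNT 4-2V had 0.717 CPM and 4OHT_siNT 2-2VM had 0.623.

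The log2 fold change of CHGB was 1.11 ± 0.336 with 4OHT and -0.061 ± 0.304 with the knockdown, both without a test. The second value changed sign between settings, from -0.28 to 0.27, and no direction can be given for it. CHGB in the knockdown was above growing cells by 1.05 ± 0.339, 2.07-fold (edgeR adjusted p = 0.0142, 95% interval 0.341 to 1.76). With siRNA number 4 alone that difference was 1.02 ± 0.602 (edgeR adjusted p = 0.221), and with the set label as a block it was 1.201 ± 0.451 (adjusted p = 0.0541). SCG2 and CHGB thus both passed a threshold that 50.5% of all genes passed, and VGF, used in choosing the list, was not tested there.

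SCG5 was not detected beyond 1 count in 4OHT_siNT 2-2VM and 2 counts in 4OHT_siNT 4-3VM, with 0 in the other libraries. A count of 0 allows up to 3 counts, or 0.168 to 0.359 CPM depending on the library, which covers counting error only. Its partner PCSK2 had 0 counts in all 18 libraries, and PCSK1, the other convertase of the regulated pathway, had at most 1. Of the other granins, CHGA and SCG3 were as scarce, with at most 1 count in any library for CHGA and at most 2 for SCG3. PCSK1N, whose product inhibits PCSK1, had more, 2 to 17 counts. None of these 3 passed the filter on low counts. CHGA, with the full CRE shown above, was therefore at or near 0 in the same libraries in which VGF reached 157 CPM.

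Divided by the length of all annotated exons, levels can be set against each other. VGF had 3.75 ± 1.36 CPM per kilobase in DMSO_siNT, 36 ± 14.3 in 4OHT_siNT and 2.49 ± 0.672 in 4OHT_siSMARCA4 (SD, n = 6). SCG2 had 4.03 ± 1.81, 3.80 ± 1.11 and 9.22 ± 4.14, and CHGB had 0.0992 ± 0.0398, 0.211 ± 0.0593 and 0.202 ± 0.0896. In growing cells VGF and SCG2 thus lay within each other's spread, in senescent cells VGF led, and in the knockdown SCG2 led with VGF below it, while CHGB was the lowest of the 3 in every group and SCG5 lay below it.

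The comparison of siRNA numbers asks whether the changes appeared with each number. siNT and siSMARCA4 of one number are different siRNAs that share only the number, so a change within a number depends on both. Sets were not balanced over the numbers either. The knockdown libraries were 2-3V, 2-3VM and the unlabelled one for number 2, and 4-2V, 4-2VM and 4-3V for number 4. Against 4OHT_siNT libraries of the same number, VGF was lower by -4.55 ± 0.242 (log2 fold change ± SE) with number 2 and by -3.10 ± 0.308 with number 4. The difference between these changes was -1.44 ± 0.406 (95% interval -2.3 to -0.584) and did not pass after adjustment over all genes (edgeR adjusted p = 0.369), where 2 of 13659 genes, 0.0146%, did. Without DMSO_siNT 4-2V it did not pass either (edgeR adjusted p = 0.0527), with 101 genes called. Between the knockdown libraries alone, siSMARCA4 number 2 over number 4, VGF differed by -0.52 ± 0.304 (95% interval -1.16 to 0.124, edgeR adjusted p = 0.825), with 0.00732% of genes called. The control siRNAs differed more: in 4OHT, siNT number 2 over number 4 gave 0.92 ± 0.268 (95% interval 0.353 to 1.49, edgeR adjusted p = 0.203, 0.0732% of genes called), and all 3 number 2 libraries were above all 3 number 4 libraries. Without DMSO_siNT 4-2V, which enters only the estimate of spread, the same difference was 0.93 ± 0.204 and passed (edgeR adjusted p = 0.0206). In that setting 586 genes were called.

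In growing cells, siNT number 2 over number 4 gave -0.30 ± 0.292 for VGF (edgeR adjusted p = 0.497, 0.0512% of genes called), or 0.046 ± 0.278 without DMSO_siNT 4-2V. The rise of VGF with 4OHT was 3.83 ± 0.227 with number 2 and 2.62 ± 0.302 with number 4. The difference between them was 1.22 ± 0.397 (95% interval 0.384 to 2.06, edgeR adjusted p = 0.114). No gene passed in that comparison (0%) by edgeR, with 3258 genes at an unadjusted p under 0.05 and 805 called by DESeq2. Without DMSO_siNT 4-2VM the VGF difference was 1.36 and passed (edgeR adjusted p = 0.0277), but 3170 genes were called there. Without DMSO_siNT 4-2V it was 0.88 ± 0.344 and did not pass (edgeR adjusted p = 0.145), with 105 genes called.

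For SCG2 the same tests gave 0.60 ± 0.364 between the knockdown siRNAs (95% interval -0.173 to 1.37, edgeR adjusted p = 0.83), -0.63 ± 0.381 between the control siRNAs in 4OHT (adjusted p = 0.605) and -0.83 ± 0.385 in DMSO (adjusted p = 0.168), the last of them -0.50 ± 0.39 without DMSO_siNT 4-2V. The change of SCG2 with the knockdown was 1.88 ± 0.177 with number 2 and 0.65 ± 0.454 with number 4, and the difference of 1.23 ± 0.527 did not pass (95% interval 0.115 to 2.34, edgeR adjusted p = 0.626). Without 4OHT_siSMARCA4 4-2VM these differences were 1.37 between the knockdown siRNAs and 2.005 between the changes (adjusted p = 0.0521 and 0.0613), and without 4OHT_siSMARCA4 4-3V they were 0.30 and 0.93. None of the CHGB differences between siRNA numbers passed, with adjusted p from 0.746 to 0.98 in these comparisons. The point estimates for VGF and SCG2 were larger in size with number 2, in opposite directions. With all libraries, at 3 per arm, the adjusted tests did not separate the reagents for these genes. The VGF differences between control siRNAs in 4OHT and in the 4OHT change each passed when 1 DMSO_siNT library was left out.

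**Figure D2:**
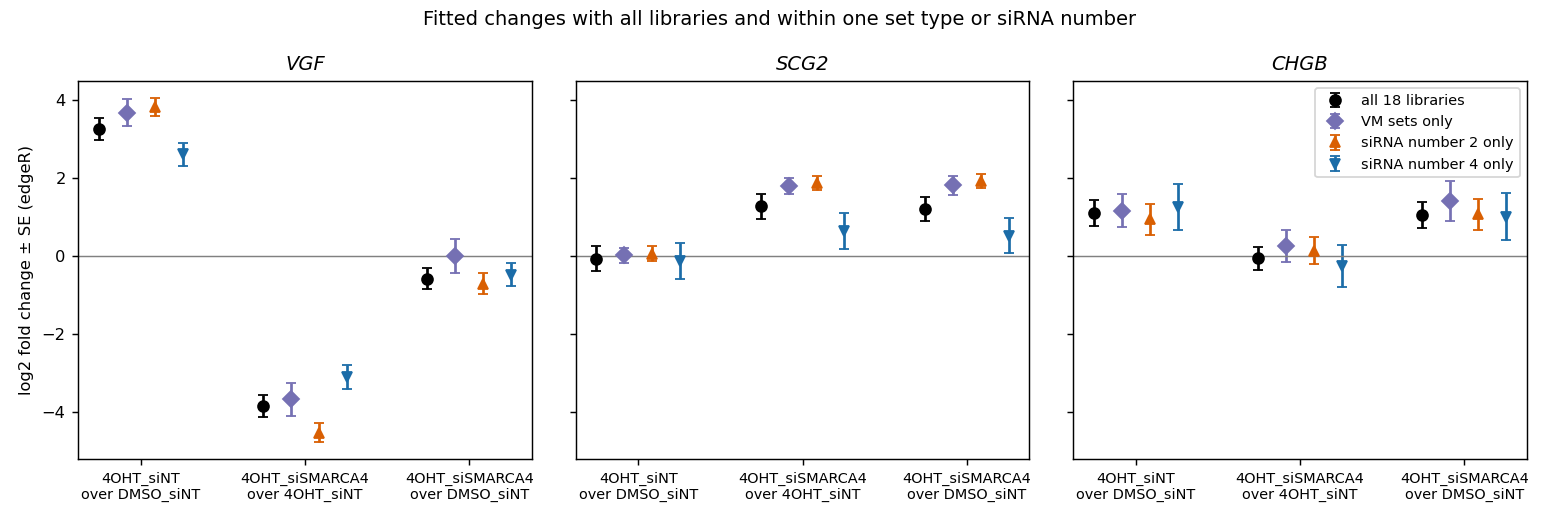
Points are fitted log2 fold changes and bars their SE on the vertical axis, for the 3 comparisons of groups on the horizontal axis, with all 18 libraries, the VM sets alone, siRNA number 2 alone or number 4 alone. VGF kept both large changes in each subset (2.62 to 3.83 and -4.55 to -3.10), SCG2 was between 0.52 and 1.94 in both knockdown comparisons, and CHGB lay near 0 with the knockdown against 4OHT_siNT.

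The V and VM sets could be compared within the 2 groups that hold both. Among the 5 knockdown libraries with a set label, SCG2 was lower in V than in VM sets by -1.19 ± 0.413 (95% interval -2.06 to -0.313), which did not pass over all genes (edgeR adjusted p = 0.386, 0.101% of genes called). With the unlabelled library in the set of its column name, 3 against 3, it was -1.095 ± 0.37 (adjusted p = 0.223), VGF was at -0.074 ± 0.369 and CHGB at -0.47 ± 0.445 (adjusted p = 0.984 and 0.837). SMARCA4 itself was higher in V than in VM sets there, by 0.59 ± 0.174 (edgeR adjusted p = 0.247), or 0.59 ± 0.147 (adjusted p = 0.0737) with the unlabelled library in VM. The 3 knockdown libraries with the least SMARCA4 (4-2VM, unlabelled and 2-3VM, 70.4 to 87.0 CPM) held 27.9 to 35.0 CPM of SCG2, and the 3 with the most (92.7 to 141 CPM) held 10.6 to 23.5. VGF showed no such order: it was highest, at 9.68 CPM, in the library with the least SMARCA4. The remaining SMARCA4 and the set letters move together across these few libraries, and their part in the SCG2 levels cannot be told apart. VGF differed between V and VM by -0.23 ± 0.411 in the knockdown (adjusted p = 0.972) and by 0.72 ± 0.361 in growing cells (adjusted p = 0.337, 0.324% of genes called). CHGB gave -0.58 ± 0.506 (adjusted p = 0.912) and 0.096 ± 0.563 (adjusted p = 0.949). Without DMSO_siNT 4-2V the values in growing cells were 0.51 ± 0.386 for VGF and -0.27 ± 0.638 for CHGB, and without 4OHT_siSMARCA4 4-2VM those in the knockdown were 0.23 for VGF and 0.069 for CHGB, so no direction can be given for CHGB in growing cells or for VGF and CHGB in the knockdown.

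**Figure D3:**
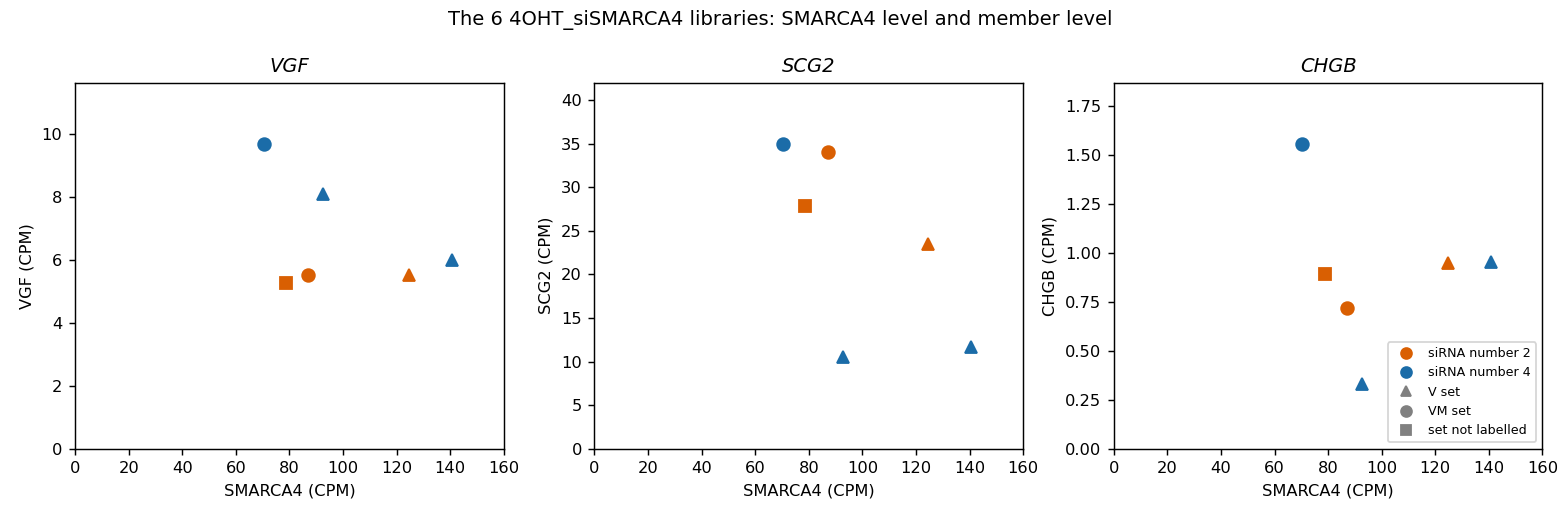
Each point is 1 of the 6 knockdown libraries, with its SMARCA4 level in CPM on the horizontal axis and that of VGF, SCG2 or CHGB on the vertical axis. SCG2 is at 27.9 CPM or more in the 3 libraries with SMARCA4 at 87.0 CPM or less, whereas VGF stays between 5.25 and 9.68 CPM throughout.

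The machinery that packs and cuts such precursors was examined next, as lists of genes by role. Prohormone processing enzymes went both ways with 4OHT: of 12 genes 9 were tested, 3 rose and 3 fell, with a list median of -0.253 against -0.0527 over all genes tested. Without DMSO_siNT 4-2V 3 rose and 6 fell (median -0.335). QPCT, a glutaminyl cyclase that caps peptide ends, rose by 3.94 ± 0.241 on the log2 scale (adjusted p = 9.45e-11) and FURIN, the ubiquitous Golgi convertase, by 0.84 ± 0.196 (adjusted p = 0.00138). CPE, the carboxypeptidase that trims peptides after convertase cleavage, fell with a log2 fold change of -1.08 ± 0.157 (adjusted p = 1.05e-05) and PCSK7, another convertase, with -0.90 ± 0.231 (adjusted p = 0.00307), or -0.53 without DMSO_siNT 4-2V. The knockdown lowered 1 of the 9 and raised 0 (median -0.228 against 0.0102 for all genes): CPE went from 18.9 ± 0.766 CPM to 11.1 ± 2.03, a log2 fold change of -0.77 ± 0.16 (adjusted p = 0.00393). Without DMSO_siNT 4-2V, which enters only the spread and the filter there, 3 fell with the knockdown. Between the knockdown and growing cells 3 were higher and 4 lower (median -0.483 against -0.037), with QPCT at 3.77 ± 0.24, QPCTL, its Golgi relative, at 0.83 ± 0.159, CPE at -1.85 ± 0.162 and PCSK7 at -1.15 ± 0.233 (adjusted p from 1.4e-10 to 0.000347).

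Of 28 genes of dense-core vesicles and regulated exocytosis 23 were tested, and with 4OHT 12 rose and 4 fell (median 0.672), where 3133 of all 13136 genes rose and 3802 fell. CADPS, a priming factor for dense-core vesicles, had 0 to 2 counts in each DMSO_siNT library and 43 to 63 in each 4OHT_siNT library, a ratio of 43.2 (95% counting interval 20.7 to 108). UNC13A, a vesicle priming protein, rose by 3.16 ± 0.569 (adjusted p = 0.000114), whereas SNAP25, a SNARE of neuronal exocytosis, fell by 3.52 on the log2 scale (SE 0.43, adjusted p = 1.18e-06) and the small GTPase RAB3B by 0.91 (SE 0.132, adjusted p = 9.86e-06). With the knockdown 2 rose and 3 fell (median -0.143), or 2 and 5 without DMSO_siNT 4-2V. SV2A, a synaptic vesicle glycoprotein, fell from 31.5 ± 1.57 CPM to 10.3 ± 3.70 (log2 fold change -1.61 ± 0.199, adjusted p = 6.47e-05) and SYT1, a calcium sensor for exocytosis, from 13.6 ± 2.31 to 5.28 ± 2.68 CPM (-1.36 ± 0.268, adjusted p = 0.00276, and -2.15 within the VM sets). RAB27B, a GTPase of granule docking, rose by 0.81 ± 0.214 (adjusted p = 0.0195, or 0.0629 within the VM sets) and VAMP2, a vesicle SNARE, by 0.39 ± 0.114 (adjusted p = 0.0323). Against growing cells the knockdown had 11 higher and 4 lower (median 0.513), among them SYT7, a calcium sensor, at 2.31 ± 0.275 (adjusted p = 7.63e-07), CADPS with a ratio of 22.7 (95% counting interval 10.8 to 57.3), SNAP25 at -3.67 ± 0.441 (adjusted p = 8.58e-07) and SV2A at -2.46 ± 0.203 (adjusted p = 5.3e-09).

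REST, the repressor that keeps many neuronal and granin genes silent outside the nervous system, was measured at 41.7 to 58.3 CPM in all libraries but DMSO_siNT 4-2V. Its log2 fold change was -0.51 ± 0.222 with 4OHT (adjusted p = 0.0623), or -0.12 ± 0.0892 without that library (adjusted p = 0.264), and 0.086 ± 0.222 with the knockdown (adjusted p = 0.858). Of the 11 tested genes of REST and its cofactors, 2 rose and 4 fell with 4OHT (median -0.372, or -0.154 without DMSO_siNT 4-2V, where 2 rose and 5 fell): the demethylase KDM1A rose by 0.28 ± 0.084 (adjusted p = 0.00857) and RCOR1, a CoREST scaffold, by 0.38 ± 0.151 (adjusted p = 0.0394), while the methyltransferase EHMT2 fell by 0.48 (SE 0.112, adjusted p = 0.00133) and RCOR3 by 0.37 (SE 0.0915, adjusted p = 0.00202). None passed with the knockdown by edgeR (median -0.156), 1 rose and 1 fell by DESeq2, and 1 rose and 3 fell without DMSO_siNT 4-2V. Against growing cells 0 were higher and 4 lower (median -0.329, or -0.113 without DMSO_siNT 4-2V, where 5 were lower), with RCOR2 at -0.97 ± 0.309 (adjusted p = 0.0131) and EHMT2 at -0.64 ± 0.113 (adjusted p = 8.77e-05). Within the VM sets RCOR2 was at -0.50 (adjusted p = 0.399).

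CRE letters are bound by the CREB family, whose genes were listed with their coactivators. Of 9 tested genes 3 rose and 1 fell with 4OHT (median 0.218), where 52.8% of all genes passed. The coactivator CRTC2 rose by 0.73 ± 0.265 (adjusted p = 0.0264) and the acetyltransferase EP300 by 0.51 ± 0.188 (adjusted p = 0.0288), while the CREB relative ATF1 fell by 0.48 (SE 0.104, adjusted p = 0.00078). With siRNA number 2 alone, EP300 was at 0.11 (adjusted p = 0.629). With the knockdown ATF1 alone passed, with a rise of 0.42 ± 0.104 (adjusted p = 0.0134, list median -0.0482). Against growing cells 2 were higher and 1 lower (median 0.17, or 0.0659 without DMSO_siNT 4-2V, where 3 were higher and 2 lower), namely CREM at 0.66 ± 0.151 (adjusted p = 0.00115), ATF2 at 0.54 ± 0.158 (adjusted p = 0.00748) and CREBBP at -0.38 ± 0.139 (adjusted p = 0.0282, or 0.301 within the VM sets).

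Neurotrophins are ligands known to induce VGF in neurons. Of 9 genes of neurotrophins and their receptors 3 were tested (BDNF, NTF3 and SORT1), and these 3 fell with 4OHT (median -1.41), BDNF with -1.78 ± 0.263 (adjusted p = 1.32e-05) and NTF3 with -1.41 ± 0.339 (adjusted p = 0.00179). With the knockdown 2 fell and 0 rose (median -0.851). NTF3 went from 6.01 ± 3.28 to 1.67 ± 0.824 CPM (-1.85 ± 0.38, adjusted p = 0.00392), and SORT1, a sorting receptor that also binds pro-neurotrophins, from 34.8 ± 2.55 to 19.3 ± 5.35 CPM (-0.85 ± 0.196, adjusted p = 0.00838). These 3 were also lower in the knockdown than in growing cells (median -1.83), NTF3 by -3.25 ± 0.382 and SORT1 by -1.83 ± 0.199 (adjusted p = 6.21e-07 and 2.31e-07).

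Of 27 peptide hormone genes 10 were tested. With 4OHT 4 rose and 3 fell (median 0.286, or -0.167 within the VM sets and 0.506 without DMSO_siNT 4-2V). STC1, a secreted glycoprotein hormone, rose by 4.20 ± 0.152 (adjusted p = 1.15e-13) and GAL, the precursor of galanin, by 3.84 ± 0.266 (adjusted p = 4.91e-10), whereas CRH, corticotropin-releasing hormone, fell by 1.83 (SE 0.489, adjusted p = 0.00392) and the vasoconstrictor gene EDN1 by 1.49 (SE 0.252, adjusted p = 6.07e-05). With the knockdown only CCK, the precursor of cholecystokinin, passed (list median -0.0789): it had 9 to 66 counts in each 4OHT_siNT library and 0 to 3 in each knockdown library, 26.7-fold lower (95% counting interval 12.7 to 67.2, adjusted p = 0.00104). GAL stayed at 37.8 ± 10.02 CPM against 49.5 ± 12.5 and STC1 at 3863 ± 347 against 3360.5 ± 214, so these 2 genes rose with 4OHT as VGF did but did not pass with the knockdown. Against growing cells 4 were higher and 3 lower (median -0.173, or 0.0954 without DMSO_siNT 4-2V), with STC1 at 4.40 ± 0.154, GAL at 3.45 ± 0.263 and CRH at -2.83 ± 0.55 (adjusted p = 5.71e-14, 1.63e-09 and 0.000245, CRH 0.0902 within the VM sets), and CCK 12.4-fold lower (95% counting interval 5.76 to 31.8). Of the 83 CCK counts in growing cells 37 were in DMSO_siNT 4-2V. Without that library the fitted log2 fold change of CCK was -2.84, against -3.65 with it.

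The receptors of VGF peptides were both tested. C1QBP, a mainly mitochondrial protein that can bind one of these peptides, rose with 4OHT by 0.40 ± 0.135 (adjusted p = 0.0181), or 0.22 within the VM sets (adjusted p = 0.0759). C3AR1, the complement C3a receptor, had 2 to 15 counts per library in growing cells, 3 to 12 in senescent cells and 10 to 25 with the knockdown. Neither passed with the knockdown (list median 0.57), where C3AR1 was at 1.02 ± 0.419 (adjusted p = 0.132). Both were above growing cells in the knockdown, C3AR1 by 1.63 ± 0.451 (adjusted p = 0.0052) and C1QBP by 0.52 ± 0.135 (adjusted p = 0.0033). The C3AR1 value was 1.13 with siRNA number 2 alone (adjusted p = 0.09) and 2.99 within the VM sets (adjusted p = 0.000708).

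**Figure D4:**
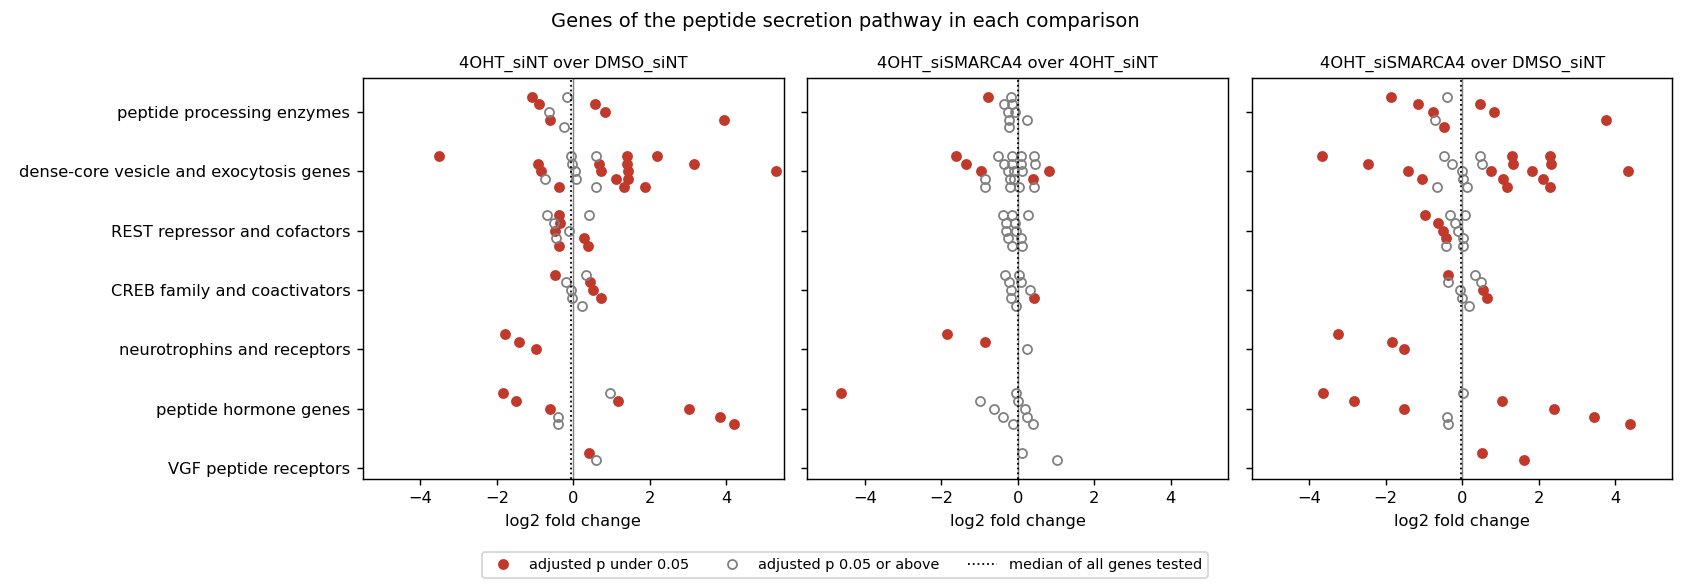
Each point is a tested gene, with its fitted log2 fold change on the horizontal axis and its list on the vertical axis, filled where the adjusted p was under 0.05, and the dotted line is the median of all genes tested. The vesicle list has 12 filled points on the right in 4OHT_siNT over DMSO_siNT, and few points of any list are filled in 4OHT_siSMARCA4 over 4OHT_siNT (points of CADPS and CCK rest on groups with 3 counts or fewer).

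Across these lists, 43 genes were called with 4OHT, 10 with the knockdown and 41 between the knockdown and growing cells. The lists held 9 processing, 23 vesicle, 11 REST, 9 CREB, 3 neurotrophin, 10 hormone and 2 receptor genes that were tested. Over all 13136 genes tested the shares called were 52.8%, 10.6% and 50.5%. Whether the lists differ from these shares was not tested, so such counts alone do not set the lists apart. None of the 10 knockdown calls held with siRNA number 4 alone, where 4 genes of the whole table passed. With 3 libraries per group, some calls against growing cells were lost as well: PCSK7, EHMT2, CRTC2 and C1QBP with 4OHT and CREM, C1QBP, CREBBP and RCOR2 in the knockdown with number 4 alone (adjusted p 0.0854 to 0.637), ATF1 and CRH with 4OHT with number 2 alone (0.0964 and 0.0509), and KDM1A and RCOR1 with either (0.0567 to 0.0982). Markers of other cell types are given beside these counts. Of 12 neuronal markers 7 were tested, 4 rose and 1 fell with 4OHT, and 0 rose and 1 fell with the knockdown (2 fell in each without DMSO_siNT 4-2V). Their summed level was 339 to 452 CPM in growing cells, 568 to 649 in senescent cells and 479 to 816 with the knockdown, most of it TUBB3. NEFL, a neurofilament subunit, rose by 3.38 ± 0.346 with 4OHT (adjusted p = 1.19e-07) and NEFM by 1.82 ± 0.367 (adjusted p = 0.000357). SNAP25, also on this list, fell by 3.52 with 4OHT (SE 0.43, adjusted p = 1.18e-06). NEFL fell by 2.44 with the knockdown (SE 0.322, adjusted p = 0.000103). Of the 7 tested neuronal markers, 4 were higher and 3 lower in the knockdown than in growing cells. Of 10 neuroendocrine markers 1, UCHL1, was tested and did not pass in either, but was lower in the knockdown than in growing cells by -0.46 ± 0.167 (adjusted p = 0.0279), or -0.24 without DMSO_siNT 4-2V. The summed level of that list was 925 to 2076 CPM in growing cells, 831 to 1022 in senescent cells and 752 to 1018 with the knockdown. Of 12 fibroblast markers 1 rose and 6 fell with 4OHT and 0 rose and 7 fell with the knockdown, among them DCN (-5.17 ± 0.207 with 4OHT) and COL1A2 (-1.46 ± 0.237 with the knockdown). Their summed level was 16652 to 43146 CPM in DMSO_siNT, lowest in 4-2V, 24014 to 37840 in 4OHT_siNT and 14718 to 24156 in 4OHT_siSMARCA4. Epithelial markers (4 of 9 tested) gave 0 up and 3 down with 4OHT and 0 up and 1 down with the knockdown, endothelial markers (2 of 5) 1 up and then none, and immune markers (1 of 6) none. The part of any of these in the levels of VGF and SCG2 was not tested.

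The genes most like each member over all 18 libraries were sought by the root mean square difference of log2 CPM, each gene centered on its own mean. For VGF these included ANK3, an ankyrin, at 0.822 and PMEL, a melanosome matrix protein, at 0.837, where the median over 11512 genes was 1.77. PMEL went from 1.27 ± 0.45 CPM in DMSO_siNT to 7.07 ± 0.85 in 4OHT_siNT and 1.09 ± 0.294 in 4OHT_siSMARCA4, and ANK3 from 2.27 ± 0.82 to 6.68 ± 1.77 and 1.07 ± 0.458. Both were thus high in 4OHT_siNT alone, with smaller changes than VGF.

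For SCG2 the nearest were HSD17B14, a steroid dehydrogenase, at 0.336, and the lysosomal enzyme genes DNASE2 at 0.406 and CTSL at 0.427 (median 0.862). HSD17B14 stood at 10.2 ± 2.48, 12.97 ± 1.19 and 23.8 ± 11.1 CPM in DMSO_siNT, 4OHT_siNT and 4OHT_siSMARCA4. For CHGB they were METRNL, a secreted protein, at 0.329, KRI1, a ribosome biogenesis factor, at 0.338 and CDC34, a ubiquitin-conjugating enzyme, at 0.339 (median 0.696), and CHGB's few counts limit how well such a match can be drawn. Libraries, depth and scaling are shared by all genes, so these likenesses are descriptions only.

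**Figure D5:**
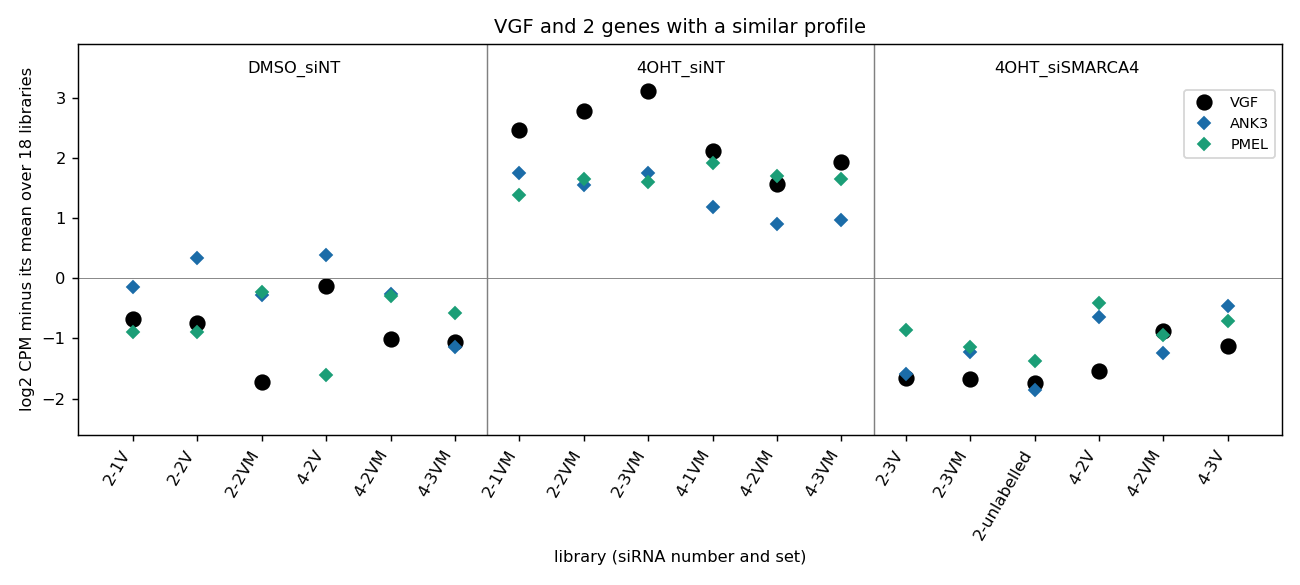
Points are log2 CPM minus the gene's mean over 18 libraries (vertical axis), for VGF, ANK3 and PMEL in each library (horizontal axis). All 3 genes are above their mean in each of the 6 4OHT_siNT libraries, and VGF is below its mean in all 12 others.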

How the data were processed

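Whole-transcript read counts per gene symbol were deposited by the authors as 1 table of 36 columns, 18 libraries on 2 lanes each, unnormalised. Per the labels and the study's methods, polyadenylated RNA was made into directional libraries, sequenced single-end on a NextSeq instrument and aligned with STAR 2.7.8a to hg38, and the submitters' processing notes also name DESeq2 1.36.0. The counting program, annotation and strand setting are not given in the sources used here. Of 29 samples in the labels, 17 libraries could be matched by title and 1 to its group only, since no title has the siRNA and set of its column name, and other samples were not analysed here.

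Lanes were summed after comparison (chi-square per degree of freedom 1.19 to 1.27 between lanes, 2.33 to 315 between libraries of a group, so no library was counted as a copy of another). Genes were kept by edgeR's filterByExpr with a minimum count of 10, which retained 99.9% of counts, and scaled by TMM. Models were fitted with edgeR 4.0.16 (quasi-likelihood F-test, R 4.3.3) on all 3 groups of 6 libraries, on treatment by siRNA number and, without the unlabelled library, on group by set letters, with Benjamini-Hochberg adjustment over all genes and a threshold of 0.05. The biological coefficient of variation was 23.3%. A floor of 3 counts was used for undetected genes, and intervals are at 95% and, for counts, cover counting error only, since reads carried no molecular identifiers. CPM values use a common scaling across all libraries. The test was checked on simulated counts.

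The members and the gene lists were chosen with earlier results of these data known. Contrasts share the 4OHT_siNT or DMSO_siNT libraries and are not independent of each other. Genes of a list are named where they had the largest rises and falls among those that passed (at most 2 in each direction per list and comparison). Also named were SMARCA4, the other granins, REST, the VGF peptide receptors and, for each member, the 3 genes of closest profile among those whose log2 CPM averaged over 1. One result is not reported here. ESR1 and HRAS were named after their values were seen. Promoter letters are from RefSeq on GRCh38.p14 and gene positions from GENCODE release 44. Alternatives were other scaling, DESeq2 1.42.0, no filter, 1 lane, leaving out each library, 1 siRNA number, the VM sets, only the groups compared, and the set label as a block. Leaving out DMSO_siNT 4-2V for the gene lists, the subsets for single list genes, and placing the unlabelled library in the set of its column name, were added after seeing the data. The 4OHT_siNT group has VM sets only, so no value within the V sets exists for comparisons with it.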

Additional observations from a re-analysis of the deposited data

Results flagged for a closer look

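Within groups of 6 libraries, single libraries far from the others were sought for each gene described (Dixon's test at the 95% level). Of 190 gene and group pairs, 18 had such a library, where about 9.5 would be expected by chance, and 14 of the 18 were in the library labelled DMSO_siNT 4-2V. None of VGF, SCG2 or CHGB had one.

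In DMSO_siNT 4-2V, REST was at 151 CPM against 46.0 to 58.3 in the other DMSO_siNT libraries, PCSK7 at 274 against 75.2 to 145, EHMT2 at 99.8 against 64.9 to 73.4 and UCHL1 at 2075 against 924 to 1245. The low-level neuronal and peptide genes GAP43 (8.61 CPM against 1.43 to 2.47), SNAP25 (5.86 against 1.72 to 3.21), GAL (6.93 against 2.47 to 3.79) and CCK (4.42 against 0.298 to 1.14) were also highest there. S100A4 was at 33.1 CPM against 7.85 to 13.6, and the 2 genes near SCG2 in profile, DNASE2 and CTSL, were at 68.4 against 40.1 to 49 and 347 against 122 to 161. Lowest there were COL1A2 at 2585 CPM against 6712 to 8434, FURIN at 54 against 144 to 196 and CRTC2 at 4.54 against 25.0 to 31.9. What sets this library apart was not tested.

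Elsewhere, C3AR1 was at 1.07 CPM in DMSO_siNT 2-1V against 0.146 to 0.478. In DMSO_siNT 2-2VM, NEFL was at 3.71 CPM against 0.641 to 1.67 and NTF3 at 21.4 against 13.7 to 15.9. COL1A2 was at 442 CPM in 4OHT_siSMARCA4 4-2VM, the knockdown library with the least SMARCA4, against 850 to 998.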

How the results depend on the processing

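Of 739 alternative values of the results on VGF, SCG2, CHGB and the lists, 724 were counted as kept. Values with a test, here including CHGB against growing cells, had to stay on the same side of the threshold. Their sign could change only where neither value passed. Values without a test had to move by less than the spread, and list counts to stay within a factor of 1.5. VGF with 4OHT was 3.83 with siRNA number 2 alone and 2.62 with number 4 alone, and with the knockdown -4.545 and -3.10. Its difference between knockdown and growing cells was -0.0059 within the VM sets. SCG2 with the knockdown was 1.88 with number 2 and 0.65 with number 4, and against growing cells 0.52 with number 4 (edgeR adjusted p = 0.4). CHGB against growing cells was 1.02 with number 4. Leaving out 1 library at a time moved the VGF difference between control siRNAs in 4OHT from 0.74 to 1.07 and that in the 4OHT change from 0.88 to 1.40. Each passed in 1 such case, in which 586 and 3170 genes were called. The cause of these differences was not tested.

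No clear pairing by set label was seen: 15 pairs that share a set had correlations of deviations from -0.286 to 0.299 (median 0.0352), and 5 exceeded 0.1. The 93 pairs that do not share one ran from -0.298 to 0.29 (median -0.000841), and 27 exceeded 0.1. So few pairs cannot exclude a pairing. Fitted with sets as a replicate block, which left out the unlabelled library, CHGB against growing cells was 1.201. Pathway list genes called with the knockdown went from 10 to 2. All genes called went from 1397 to 236 with the knockdown and from 6935 to 4356 with 4OHT. Leaving out the unlabelled library alone, without a block, gave 923 and 6885. SCG2 kept its call against growing cells under the block.

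Pathway list genes called with the knockdown were 19 within the VM sets and 18 without DMSO_siNT 4-2V. All genes called with the knockdown were 4 with siRNA number 4 alone, 3429 with number 2 alone, 2858 within the VM sets, 4064 with the unlabelled library added to these, 3405 with the 2 groups alone, 3269 without DMSO_siNT 4-2V, 931 without 4OHT_siSMARCA4 2-3VM and 923 without the unlabelled library. Between knockdown and growing cells 4119 genes were called with number 4 alone, against 6635. DESeq2 called more genes than edgeR between siRNA numbers (51 against 1, 204 against 10, 1812 against 7, 72 against 2 and 805 against 0) and between V and VM sets (442 against 45 in DMSO_siNT and 157 against 14 in the knockdown). With the unlabelled library in the set of its column name edgeR called 78 and 101. CHGB has 3 to 18 counts a library, and SCG5 is below what this depth can show.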
